A study of Mus musculus with 15 samples.

Results

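Interferon stimulated genes were followed in the lungs of mice fed permethrin, a pyrethroid insecticide. The group was a list of 40 genes chosen by name for their known induction by interferon, and every array probe whose RefSeq accession mapped to one of them was taken. Of the 40 genes, 38 had a probe and passed the filter on dim probes, among 34401 features measured in all, of which 19289 carried a gene symbol. No probe was matched to Mx1 or Mx2, so these antiviral GTPases have no value here.

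The mice were females of the outbred stock Crlj:CD1(ICR), 11 weeks old, fed a powdered diet with 0 (control), 20, 500, 2500 or 5000 ppm permethrin for 7 days. Each diet had 3 mice, which the labels call biological replicates, and the RNA of each whole lung sample was hybridised to its own one-colour Agilent array. Per the labels all groups shared strain, sex, age and feeding time and differed by diet. A whole lung holds many cell types, so fewer cells of a type and less RNA per cell cannot be told apart.

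Interferons are secreted by cells that sense viral nucleic acid or other danger signals. Type I and type III interferons bind receptors that activate JAK kinases. These signal to the complex ISGF3, which contains STAT2 and IRF9 and binds the interferon stimulated response element in the promoters of many interferon stimulated genes. Interferon gamma acts mainly through a different element, called GAS. In the lung, epithelial cells and macrophages use these genes to slow the spread of respiratory viruses.

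The response element can be read directly in the promoters. The RefSeq promoter table (build GRCm38.p6) covers 250 bases before to 50 bases after a gene's start and held 31 of the 40 genes, in 35 windows. The core of the interferon stimulated response element, the letters GAAA followed after any 2 bases by GAAA again, was searched on both strands with overlaps counted. It was present in 14 of the 31 genes (45.2%), beside 3.99% of all 27025 genes in the table, and in 42.9% of the 35 windows, beside 3.44% of all 32851 windows. The letters TTCNNNGAA, the GAS element, were present in 6 of the 31 genes (19.4%), beside 9.55% of all genes, and in 17.1% of the 35 windows, beside 8.3% of all windows. The stretches below are shown because they carry the element that ISGF3 recognises. Each is written 5′ to 3′ on the gene's own strand, with the core in capitals (read as TTTC, any 2 bases, TTTC where it lies on the opposite strand).
Isg15, chr4:156200860-156200911, minus strand: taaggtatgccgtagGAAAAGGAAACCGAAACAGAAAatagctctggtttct
Ifit1, chr19:34640770-34640828, plus strand: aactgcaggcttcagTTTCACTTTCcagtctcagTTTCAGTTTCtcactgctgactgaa
Ifit3, chr19:34583358-34583431, plus strand: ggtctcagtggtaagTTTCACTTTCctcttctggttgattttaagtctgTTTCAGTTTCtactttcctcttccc
Oas1a, chr5:120907526-120907560, minus strand: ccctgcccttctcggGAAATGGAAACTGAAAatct
Bst2, chr8:71537572-71537617, minus strand: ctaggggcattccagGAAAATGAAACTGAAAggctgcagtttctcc
Gbp2, chr3:142620589-142620628, plus strand: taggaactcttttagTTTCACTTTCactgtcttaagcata
Rsad2, chr12:26456548-26456587, minus strand: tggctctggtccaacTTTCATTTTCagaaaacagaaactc
Isg15 held 3 overlapping copies of the core. Ifit1 and Ifit3 each held 2 separate copies, Oas1a and Bst2 each held 2 overlapping copies, and Gbp2 and Rsad2 held 1 each. These are matches of letters in a window; binding was not measured.

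Levels are given as log2 of the processed signal relative to the 75th percentile of the same array, so a value of 0 is that percentile and 1 unit is a factor of 2. Levels of different probes were not set against each other. On each array 70.7% to 87.0% of probes were well above background. The arrays lay on 2 slides. The first held the control mice, the 20 ppm mice and 500 ppm mice 1 and 2, and the second held 500 ppm mouse 3 and all mice at 2500 and 5000 ppm, so slide and the 2 highest doses can hardly be told apart. 4 arrays stood apart in a principal component analysis of all features. They were 500 ppm mouse 3 and 2500 ppm mouse 3 on the first component (36.5% of the variance), whose files carry a different extraction status, and control mouse 1 and 20 ppm mouse 1 on the second (17.9%). Markers of lung cells were high on every array, with a mean log2 level between 6.37 and 6.74 over 7 type 2 epithelial genes and between 6.04 and 7.05 over 5 club cell genes.

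The first question was whether any interferon stimulated gene differed between a permethrin diet and the control diet. None of the 38 measured genes did by the test used. Limma with Benjamini-Hochberg adjustment over all features called 0 of 38 genes at an adjusted p under 0.05 at 20, 500, 2500 and 5000 ppm, where it called 0%, 0%, 0% and 0.0407% of all features. It also called 0 of 38 between 5000 and 2500 ppm and between 500 and 20 ppm (0% of all features each), on the trend over the 5 dose ranks (0.142%) and in the F test for any difference among diets (0.0407%). At an unadjusted p under 0.05 the counts were 1, 3, 2 and 3 of 38 at 20, 500, 2500 and 5000 ppm, beside 1.48%, 2.84%, 8.49% and 5.14% of all features. On the trend 3 of 38 had such a p, beside 9.22% of all features, and in the F test 2 of 38, beside 5.35%. For 5000 against 2500 ppm it was 0 of 38 beside 5.04%, and for 500 against 20 ppm 2 of 38 beside 5.2%.

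These counts do not show that the genes were unaffected. The median standard error of a gene's log2 difference was 0.23. The 95% interval lay inside 1 log2 unit in either direction, a factor of 2, for 33, 30, 32 and 34 of the 38 genes at 20, 500, 2500 and 5000 ppm. The interval left out 0, before any adjustment, for 1, 3, 2 and 3 of the 38 genes.

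The direction of the differences was uneven at the lowest dose. At 20 ppm the log2 difference from control was above 0 for 33 of the 38 genes, against 44.4% of all features, and its median was 0.22 against -0.03 for all features. At 500 ppm it was above 0 for 31 of 38, but also for 70.4% of all features, and the medians were 0.14 and 0.12. At 2500 ppm 15 of 38 were above 0, beside 57.3% of all features, with medians of -0.02 and 0.05. At 5000 ppm 19 of 38 were above 0, beside 60.6% of all features, with medians of -0.00 and 0.07. The median level over the genes within a mouse was 1.79, 2.25 and 1.93 in controls and 2.06, 2.22 and 2.55 at 20 ppm. It varied between mice of a diet with an SD of 0.22. That SD describes single mice and is not the error of a difference between diets, so it does not test the medians above. Fitting slide as a fixed block leans on 1 array, 500 ppm mouse 3, for the slide difference. In that fit the median over the 38 genes was 0.18 at 2500 ppm and 0.26 at 5000 ppm, while that of all features was -0.15 and -0.14. The median slope over dose ranks then turned from -0.026 to 0.044. The same control mice enter all 4 comparisons. Between 5000 and 2500 ppm 24 of 38 genes were above 0, beside 55.3% of all features, between 500 and 20 ppm 14 of 38, beside 72.1%, and on the slope over dose ranks 11 of 38, beside 64%.

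**Figure D1:**
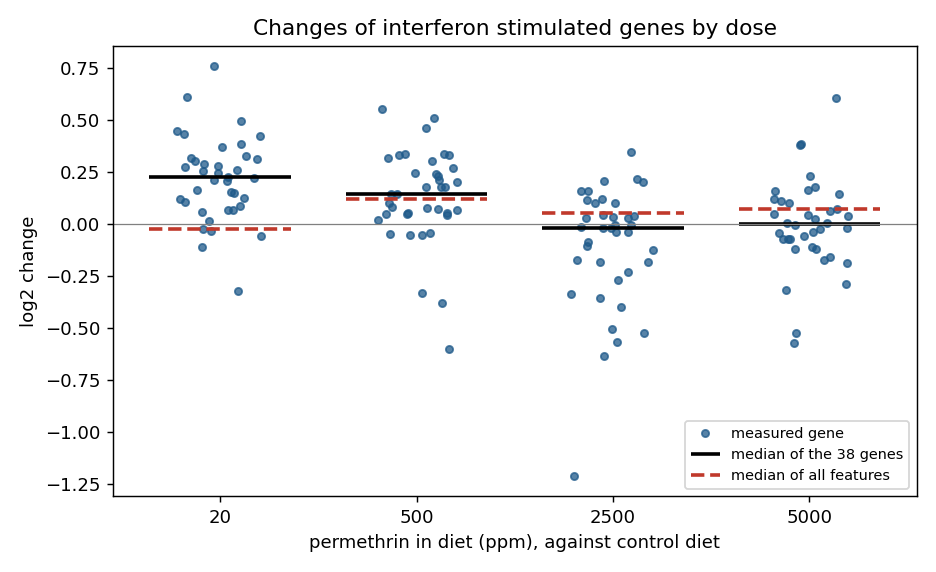
Log2 change against the control diet (vertical axis) of each of the 38 measured interferon stimulated genes at each permethrin dose (horizontal axis, ppm). Black lines are the median of the 38 genes, 0.22 at 20 ppm and -0.00 at 5000 ppm, and dashed red lines the median of all 34401 features, -0.03 and 0.07. No point passed the test.

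High values were concentrated in particular mice, all on the first slide. Mouse 3 at 20 ppm was among the 3 highest of the 15 mice for 29 of 38 genes (76.3%), and for 16.9% of all features. Mouse 2 at 500 ppm was among the 3 highest for 22 of 38 (57.9% against 12%), and mouse 2 at 20 ppm for 18 of 38 (47.4% against 16.5%). The next was control mouse 2, with 10 of 38 (26.3% against 20.3%). The other mice were among the 3 highest for 2 to 7 of the 38 genes. Beside the share of all features these counts were 3 (15.6%) and 3 (14.9%) in control mice 1 and 3, 7 (13.1%) in 20 ppm mouse 1, and 2 (12.7%) and 4 (42.4%) in 500 ppm mice 1 and 3. They were 3 (16.6%), 2 (19.3%) and 2 (38.1%) in the 2500 ppm mice and 3 (19%), 4 (21%) and 2 (21.8%) in the 5000 ppm mice. Mouse 1 at 20 ppm, on the same diet as mice 2 and 3, was among the 3 lowest for 18 of 38 genes (47.4%), but also for 51.8% of all features. Control mouse 1 had 47.4% against 44.6%. The excess of low values was larger in 2500 ppm mouse 3, whose array stood apart (17 of 38, 44.7% against 19.1%). In 5000 ppm mouse 3 it was 14 of 38 (36.8% against 15%). In 500 ppm mouse 3 it was 23.7% against 12.8%, and in control mouse 3 21.1% against 12%. Every other mouse had a smaller share of the genes than of all features. Leaving out 20 ppm mouse 3 moved the median log2 difference at 20 ppm from 0.22 to 0.12, and leaving out 500 ppm mouse 2 moved that at 500 ppm from 0.14 to 0.00.

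**Figure D2:**
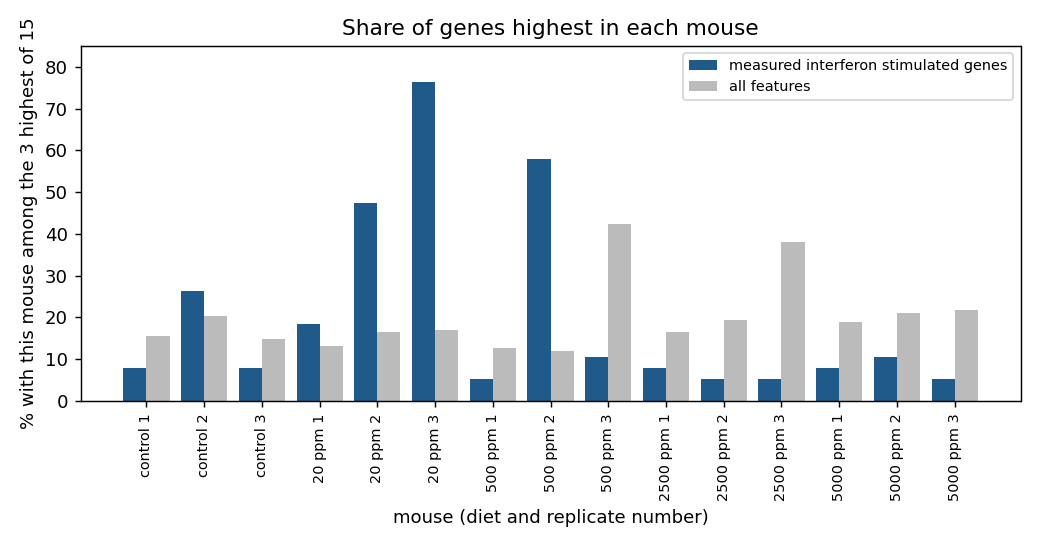
Share of genes (vertical axis, percent) for which a given mouse (horizontal axis) was among the 3 highest of 15, for the 38 measured interferon stimulated genes (blue) and for all features (grey). The blue bars reach 47.4%, 76.3% and 57.9% in 20 ppm mouse 2, 20 ppm mouse 3 and 500 ppm mouse 2, and the grey bars are tallest in 500 ppm mouse 3 and 2500 ppm mouse 3, which stood apart on the first component.

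**Figure D3:**
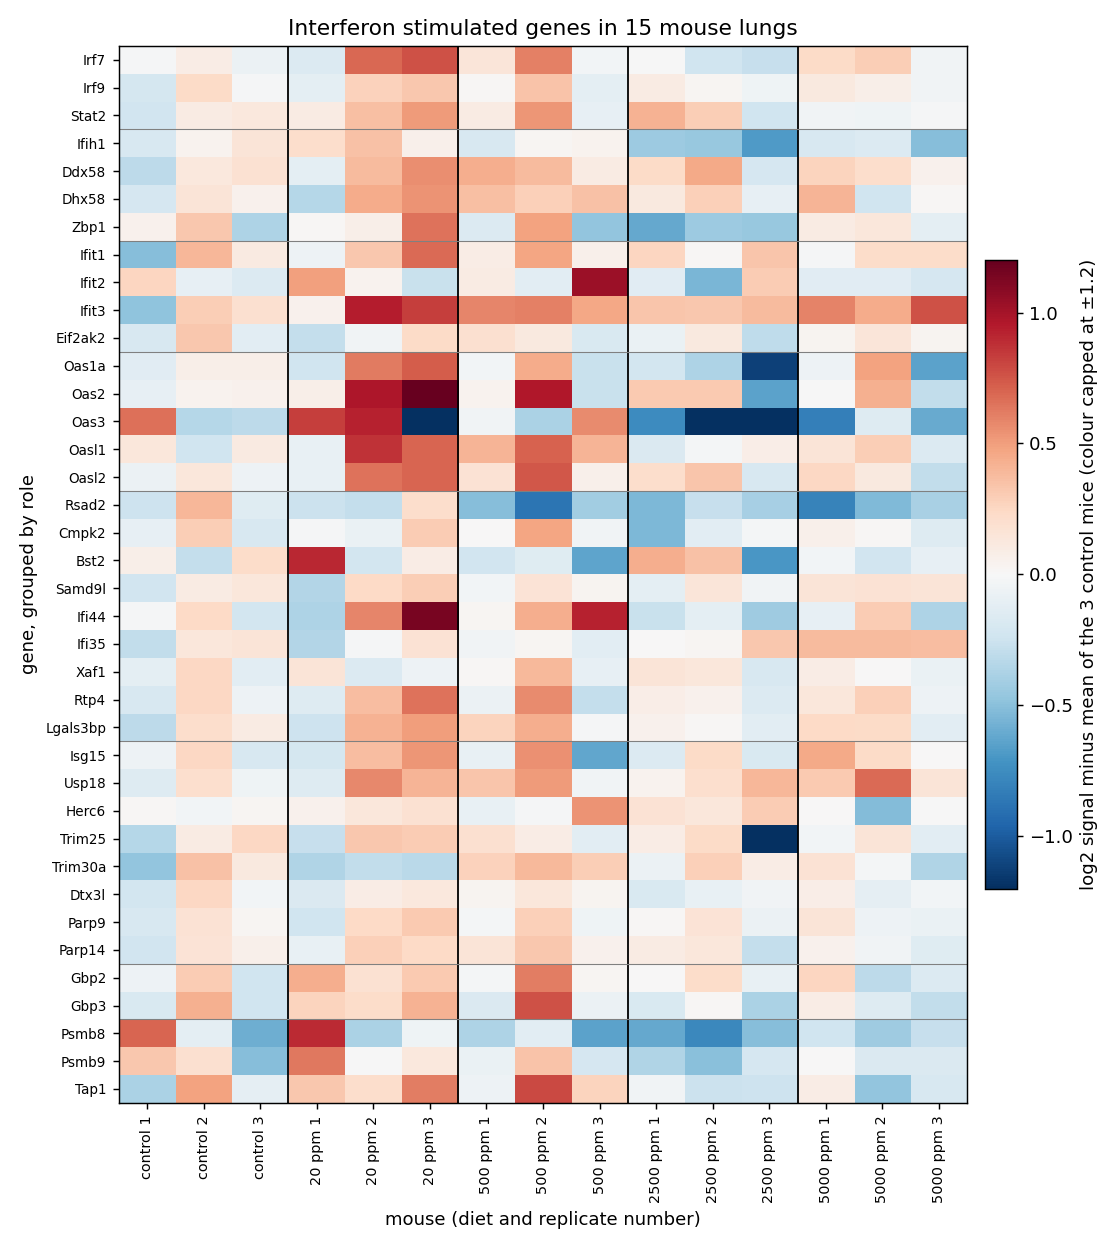
Log2 signal of the 38 measured genes (rows, grouped by role) in each of the 15 mice (columns, by diet), minus the mean of the 3 control mice; red is above and blue below that mean, with colours capped at 1.2 log2 units. The columns of 20 ppm mice 2 and 3 and of 500 ppm mouse 2 are red for most genes. Those of the other mice on these diets mix red and blue, with 500 ppm mouse 1 also red for many genes.

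On the probes used, the transcription factors that carry the interferon signal to the nucleus showed this mouse pattern. Irf7, the factor that amplifies type I interferon production, read 3.24, 3.35 and 3.19 in the control mice, 3.1, 3.95 and 4.02 at 20 ppm, 3.41, 3.86 and 3.22 at 500 ppm, 3.26, 3.02 and 2.98 at 2500 ppm, and 3.49, 3.56 and 3.22 at 5000 ppm. The 3 highest values belonged to 20 ppm mice 2 and 3 and 500 ppm mouse 2, and every diet overlapped the controls. The log2 difference was 0.43 ± 0.24 (SE) at 20 ppm and 0.16 ± 0.24 at 5000 ppm (limma adjusted p = 1.0 and 0.970). A second, dimmer probe of Irf7 differed from control by -0.53 at 5000 ppm, against 0.16 for the probe used, so the direction for Irf7 at that dose depended on the probe. Stat2, a subunit of ISGF3, read 2.15, 2.47 and 2.5 in controls, 2.48, 2.74 and 2.88 at 20 ppm, 2.47, 2.90 and 2.27 at 500 ppm, 2.79, 2.67 and 2.14 at 2500 ppm, and 2.33, 2.32 and 2.36 at 5000 ppm. Its highest values were again those of 500 ppm mouse 2 and 20 ppm mouse 3, and all diets overlapped. Irf9, the DNA-binding subunit of ISGF3, lay between 3.00 and 3.55 in all mice on the probe used. The dimmer probe of each factor, well above background on all 15 arrays, did not show the mouse pattern. For Irf7 it was highest in control mouse 1 (-1.50) and 20 ppm mouse 1 (-1.69). For Stat2 it was highest in 500 ppm mouse 3 (-0.23) and lowest in 500 ppm mouse 2 (-2.53). For Irf9 it was highest in control mouse 3 (2.30).

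Among the sensors of foreign nucleic acid, Ifih1 had the smallest p of all 38 genes in the F test. Ifih1 encodes MDA5, which recognises long double-stranded RNA. It read 0.91, 1.14 and 1.25 in controls, 1.30, 1.45 and 1.16 at 20 ppm, 0.90, 1.12 and 1.14 at 500 ppm, 0.66, 0.64 and 0.42 at 2500 ppm, and 0.90, 0.94 and 0.59 at 5000 ppm. All 3 mice at 2500 ppm lay below all 3 controls, while the 5000 ppm mice overlapped them. The log2 difference was -0.53 ± 0.15 at 2500 ppm (limma adjusted p = 0.302) and -0.29 ± 0.15 at 5000 ppm (adjusted p = 0.964). The slope over dose ranks was -0.13 ± 0.03 log2 units per rank (adjusted p = 0.251), and the F test gave an adjusted p of 0.534. With arrays weighted by their own precision, the slope of -0.14 had an adjusted p of 0.0250 and the F test an adjusted p of 0.0428, so for Ifih1 the weighting decides the call. The weighted fit passed 749 of all 34401 features on the trend and 887 in the F test, against 49 and 14 unweighted. The mice at 2500 and 5000 ppm lay on the second slide. The 1 other mouse on that slide, 500 ppm mouse 3, whose array stood apart, read 1.14. With slide as a fixed block, a fit that leans on that array, the difference at 2500 ppm was -0.65. Slide and dose cannot be told apart for Ifih1.

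The other sensors were Zbp1, Ddx58 and Dhx58. Zbp1, which binds Z-form nucleic acid and triggers necroptosis, also had all 2500 ppm mice below all controls, with values of -0.26, -0.08 and -0.10 against 0.40, 0.68 and -0.01. The 500 ppm mouse on the same slide, whose array stood apart, read -0.12. With slide as a fixed block, which leans on that array, the Zbp1 difference at 2500 ppm turned from -0.50 to 0.13. The 5000 ppm mice read 0.45, 0.49 and 0.24 for Zbp1 and overlapped the controls. A second, dimmer Zbp1 probe read -1.94, -2.24 and -1.83 at 2500 ppm, overlapping -1.39, -1.80 and -2.05 in controls. Ddx58, which encodes RIG-I, differed by 0.18 ± 0.22 at 5000 ppm on the probe used, but its 4 probes ranged from -0.43 to 0.24. Dhx58, the regulator LGP2, had all 3 mice at 500 ppm above the controls, at -0.46, -0.54 and -0.47 against -1.03, -0.67 and -0.77.

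Few genes had groups that did not overlap on the probe used. At 20 ppm 2 of 38 genes, Oas2 and Herc6, had all 3 mice above the controls (1.5% of all features) and 0 had all 3 below (4.34%). At 500 ppm 3 lay above (4.53%), namely Dhx58, Ifit3 and Oasl1, and 1, Rsad2, lay below (2.15%). At 2500 ppm Ifit3 and Herc6 lay above, 2 genes (8.83%), and 5 genes lay below (4.73%), namely Ifih1, Zbp1, Oas1a, Oas3 and Rsad2. Oas3 passed the filter on dim probes only through the 500 ppm mice. No 2500 ppm mouse was well above background for it, so its place here rests on values near the background. At 5000 ppm 3 lay above (12.9%), namely Ifit3, Samd9l and Ifi35, and 1, Rsad2, lay below (5%). Between 5000 and 2500 ppm, 6 of 38 genes had all 3 mice at 5000 ppm above those at 2500 ppm (8.13%) and 1 below (7.1%). Between 500 and 20 ppm it was 1 above (7.61%) and 2 below (3.2%).

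**Figure D4:**
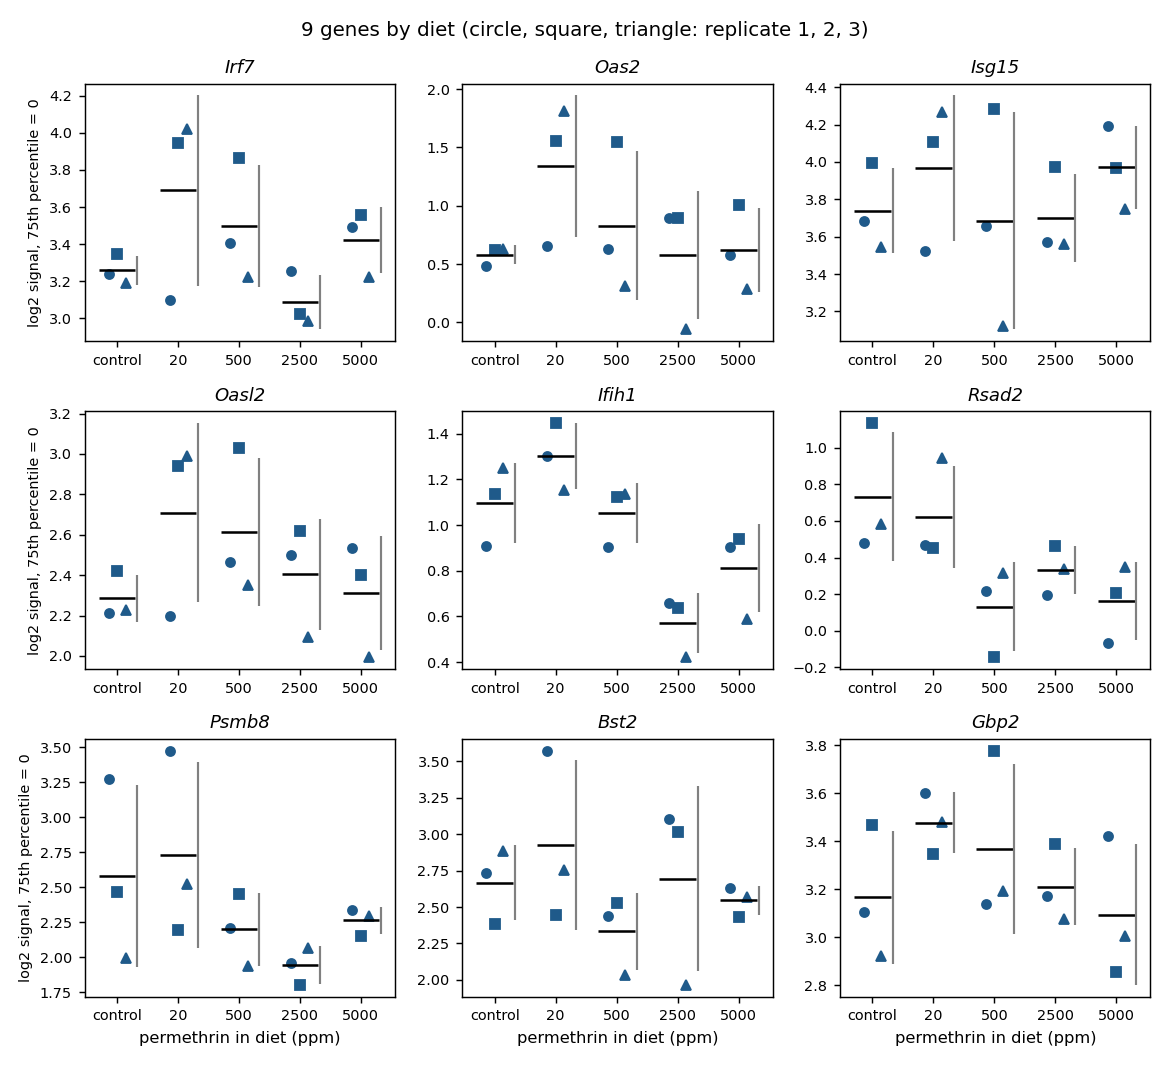
Log2 signal (vertical axis, 75th percentile of the array set to 0) of 9 genes in each mouse by permethrin dose (horizontal axis, ppm). Circles, squares and triangles are replicates 1, 2 and 3, black lines the mean of 3 mice and grey bars 1 SD to either side. Irf7, Oas2 and Oasl2 are highest in 20 ppm mice 2 and 3 and 500 ppm mouse 2, and Ifih1 lies between 0.42 and 0.66 at 2500 ppm.

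The IFIT proteins bind viral RNA and block its translation. Ifit3 had the largest positive difference of the 38 genes at 500, 2500 and 5000 ppm. It read 1.84, 2.62 and 2.51 in controls, 2.38, 3.27 and 3.16 at 20 ppm, 2.91, 2.93 and 2.79 at 500 ppm, 2.66, 2.65 and 2.70 at 2500 ppm, and 2.92, 2.77 and 3.09 at 5000 ppm. All mice at 500, 2500 and 5000 ppm lay above all 3 controls, and control mouse 1, one of the arrays that stood apart, was the lowest of all. The log2 difference was 0.61 ± 0.24 at 20 ppm, 0.55 ± 0.24 at 500 ppm, 0.35 ± 0.24 at 2500 ppm and 0.60 ± 0.24 at 5000 ppm (limma adjusted p = 1.0, 0.941, 0.792 and 0.928). Without control mouse 1 the difference at 5000 ppm was 0.36, and at 2500 ppm 0.10.

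Ifit1 did not share the separation of Ifit3. It read -0.28, 0.62 and 0.33 in controls, 0.16, 0.55 and 0.90 at 20 ppm, 0.31, 0.70 and 0.29 at 500 ppm, 0.48, 0.23 and 0.56 at 2500 ppm, and 0.21, 0.44 and 0.44 at 5000 ppm. Every diet overlapped the controls, and control mouse 1 was again the lowest. Ifit2 was between -2.79 and -1.21, with its highest value in 500 ppm mouse 3. Eif2ak2, which encodes the kinase PKR that halts translation on double-stranded RNA, differed from control by at most 0.09 in size at any dose.

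The OAS enzymes make 2′-5′ oligoadenylates, which activate RNase L to degrade RNA. Oas2 had the largest positive difference at 20 ppm. It read 0.49, 0.62 and 0.63 in controls, 0.65, 1.55 and 1.81 at 20 ppm, 0.63, 1.54 and 0.31 at 500 ppm, 0.89, 0.90 and -0.06 at 2500 ppm, and 0.58, 1.0 and 0.29 at 5000 ppm. The 20 ppm mice all lay above the controls, mouse 1 only just, and the log2 difference was 0.76 ± 0.37 (limma adjusted p = 1.0). Without 20 ppm mouse 3 it was 0.52, and without 20 ppm mouse 1 it was 1.10. Oas1a read 1.91, 2.11 and 2.12 in controls, 1.81, 2.67 and 2.78 at 20 ppm, 2.01, 2.49 and 1.78 at 500 ppm, 1.83, 1.68 and 0.92 at 2500 ppm, and 1.99, 2.53 and 1.4 at 5000 ppm. The 2500 ppm mice lay below all controls (-0.57 ± 0.34, adjusted p = 0.724), with mouse 3, an array that stood apart, the lowest. Without that mouse the Oas1a difference was -0.29, and with slide as a fixed block it was -0.10.

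The OAS-like genes followed the same mice at the low doses. Oasl1, an OAS-like protein without enzyme activity that limits Irf7 translation, read -0.17, -0.55 and -0.20 in controls, -0.40, 0.56 and 0.39 at 20 ppm, 0.10, 0.40 and 0.10 at 500 ppm, -0.48, -0.33 and -0.23 at 2500 ppm, and -0.15, -0.01 and -0.47 at 5000 ppm. The 500 ppm mice lay above all controls (0.51 ± 0.23, limma adjusted p = 0.941), and the 2500 and 5000 ppm mice overlapped them. On a second, dimmer Oasl1 probe the 500 ppm mice, at -3.48, -3.99 and -3.06, overlapped the controls, at -2.90, -4.11 and -3.80. In the F test Oasl1 had an adjusted p of 0.976, and of 0.0338 with weighted arrays, so its call too depends on the weighting. Oasl2, another OAS-like gene, read 2.94 and 2.99 in 20 ppm mice 2 and 3 and 3.03 in 500 ppm mouse 2, above 2.21, 2.42 and 2.23 in the controls.

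Oas3 was at the edge of detection. Its probe was well above background in 2 control mice, 2 mice at 20 ppm and 3 at 500 ppm, and in 0 mice at 2500 and 5000 ppm. The log2 values were -3.75, -4.75 and -4.73 in controls, -3.58, -3.49 and -5.96 at 20 ppm, -4.45, -4.79 and -3.84 at 500 ppm, -5.17, -5.93 and -5.76 at 2500 ppm, and -5.23, -4.57 and -5.01 at 5000 ppm. With the dim groups set to the detection limit, the control mean was 1.36-fold higher than at 2500 ppm and 1.23-fold higher than at 5000 ppm. The control mean includes a mouse not well above background, so these folds are not firm lower bounds. Limma was run on the values as read. Its log2 differences were -1.21 at 2500 ppm (adjusted p = 0.583) and -0.53 at 5000 ppm (adjusted p = 0.970). With the alternative background correction, normexp, the difference at 2500 ppm was -0.05.

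Among the antiviral effectors, Rsad2 had the largest negative difference of the 38 genes at 500 and 5000 ppm. Rsad2 encodes viperin, an enzyme that makes a chain-terminating nucleotide. It read 0.48, 1.14 and 0.58 in controls, 0.47, 0.45 and 0.94 at 20 ppm, 0.22, -0.15 and 0.32 at 500 ppm, 0.20, 0.46 and 0.34 at 2500 ppm, and -0.07, 0.21 and 0.35 at 5000 ppm. On the probe used, all mice at 500, 2500 and 5000 ppm lay below all 3 controls. The log2 difference was -0.60 ± 0.21 at 500 ppm, -0.40 ± 0.21 at 2500 ppm and -0.57 ± 0.21 at 5000 ppm (limma adjusted p = 0.941, 0.665 and 0.888). Without control mouse 2, the highest of the 15, the difference at 500 ppm was -0.40 and at 5000 ppm -0.37. On the probe used, Rsad2 was low in 500 ppm mouse 2, at -0.15, although that mouse was high for Irf7, Oas2 and Isg15. A second, dimmer Rsad2 probe, well above background on all 15 arrays, did not show the separation. It lay between -1.79 and -1.04 in controls and between -2.26 and -1.13 at 500 ppm. At 2500 ppm it lay between -3.84 and -0.95, and at 5000 ppm between -1.99 and -1.25. Its difference from control at 5000 ppm was -0.29.

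Cmpk2, the chromosomal neighbour of Rsad2 whose enzyme supplies viperin's nucleotide substrate, read 0.57 in 500 ppm mouse 2, the highest of its 15 values. It differed from control by -0.03 ± 0.20 at 5000 ppm. Bst2, which encodes tetherin and holds budding virus at the cell surface, read 2.74, 2.38 and 2.88 in controls, 3.57, 2.44 and 2.76 at 20 ppm, 2.44, 2.53 and 2.03 at 500 ppm, 3.11, 3.02 and 1.96 at 2500 ppm, and 2.63, 2.43 and 2.57 at 5000 ppm. Bst2 was highest in 20 ppm mouse 1 and lowest in 2500 ppm mouse 3, both arrays that stood apart, and all diets overlapped. Ifi35 had all 5000 ppm mice at 5.24, above 4.57, 5.0 and 5.01 in controls, but its second probe differed by -0.32 at that dose against 0.38 for the probe used. The dimmer Ifi35 probe had its 2 highest values in control mouse 1 (1.92) and 20 ppm mouse 1 (1.96) and lay between -0.70 and 0.50 elsewhere.

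The other effectors were Samd9l, Ifi44, Xaf1, Rtp4 and Lgals3bp, and their differences at 5000 ppm ran from -0.06 to 0.16. Ifi44 and Rtp4 were highest in 20 ppm mouse 3, at 0.32 and 4.4, and Xaf1 in 500 ppm mouse 2, at 2.17.

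ISG15 is a ubiquitin-like protein that is attached to other proteins during infection. Isg15 read 3.68, 3.99 and 3.54 in controls, 3.52, 4.11 and 4.27 at 20 ppm, 3.66, 4.28 and 3.12 at 500 ppm, 3.57, 3.97 and 3.56 at 2500 ppm, and 4.19, 3.97 and 3.75 at 5000 ppm. The spread within 500 ppm was wider than any difference between diets, and every diet overlapped the controls. Usp18, the protease that removes ISG15 and dampens receptor signalling, had the largest difference of this set at 5000 ppm. It read 0.94, 1.30 and 1.04 in controls, 0.94, 1.68 and 1.51 at 20 ppm, 1.43, 1.61 and 1.05 at 500 ppm, 1.13, 1.30 and 1.49 at 2500 ppm, and 1.41, 1.77 and 1.25 at 5000 ppm. The difference of 0.39 ± 0.22 at 5000 ppm had a limma adjusted p of 0.964, and 1 of the 3 mice lay below the highest control.

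Trim30a and Trim25, ubiquitin ligases of the TRIM family, each had a feature of their own. Trim30a read 0.45, 1.28 and 1.05 in controls, 0.57, 0.64 and 0.61 at 20 ppm, 1.2, 1.31 and 1.22 at 500 ppm, 0.86, 1.22 and 1.02 at 2500 ppm, and 1.10, 0.90 and 0.57 at 5000 ppm. It had the largest negative difference at 20 ppm (-0.32 ± 0.20), and the 3 mice at 500 ppm lay above the 3 at 20 ppm (0.64 ± 0.20, limma adjusted p = 0.790). Control mouse 1 was its lowest value. Trim25, which activates RIG-I, read 3.57 in 2500 ppm mouse 3 and between 4.56 and 5.22 in the other mice. Herc6, an ISG15 ligase in the mouse, read -1.98, -2.02 and -1.97 in controls and -1.82, -1.86 and -1.69 at 2500 ppm. Dtx3l, Parp9 and Parp14, which act together in ubiquitin and ADP-ribose modification, differed from control by -0.11 to 0.18 at all doses.

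The guanylate binding proteins attack the vacuoles of intracellular pathogens and respond strongly to interferon gamma. Gbp2 read 3.1, 3.47 and 2.92 in controls, 3.60, 3.35 and 3.48 at 20 ppm, 3.14, 3.78 and 3.19 at 500 ppm, 3.17, 3.39 and 3.07 at 2500 ppm, and 3.42, 2.86 and 3.01 at 5000 ppm. Gbp3 read 1.98, 2.59 and 1.92 in controls, 2.43, 2.38 and 2.58 at 20 ppm, 1.99, 2.92 and 2.10 at 500 ppm, 1.98, 2.18 and 1.78 at 2500 ppm, and 2.25, 2.0 and 1.87 at 5000 ppm. Both were highest in 500 ppm mouse 2, and no diet separated from the controls for either gene.

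Psmb8 and Psmb9, subunits of the immunoproteasome, and Tap1, which carries the resulting peptides into the endoplasmic reticulum, prepare antigen for MHC class I. Psmb8 read 3.28, 2.47 and 2.0 in controls, 3.47, 2.20 and 2.52 at 20 ppm, 2.21, 2.45 and 1.94 at 500 ppm, 1.96, 1.80 and 2.07 at 2500 ppm, and 2.34, 2.15 and 2.30 at 5000 ppm. Its 2 highest values belonged to control mouse 1 and to mouse 1 at 20 ppm, whose arrays the second component set apart. The difference was -0.63 ± 0.33 at 2500 ppm (limma adjusted p = 0.665), and the groups overlapped. All 3 genes were below control at 2500 and 5000 ppm, with log2 differences from -0.63 to -0.18 at 2500 ppm and from -0.32 to -0.11 at 5000 ppm, and none passed the test. Some of these signs depended on a single control mouse. Without control mouse 1 the Psmb8 difference was -0.29 at 2500 ppm and 0.03 at 5000 ppm, and that of Psmb9 was 0.05 at 5000 ppm. Without control mouse 2 the Tap1 difference was 0.06 at 2500 ppm and 0.05 at 5000 ppm. A second, dimmer Tap1 probe, well above background on 13 arrays, differed by -0.71 at 5000 ppm against -0.19 for the probe used. The 2 highest values of that dimmer probe were in control mouse 1 (-1.51) and 20 ppm mouse 1 (-0.81).

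Most of the genes co-varied from mouse to mouse within a diet. Each gene's deviations from its diet means were correlated with the mean deviation of the other measured genes over the 15 arrays, which share slides and labelling. The correlation was above 0.5 for 28 of 38 genes, against 19.3% of the other features, and its median was 0.62. Irf9, Rtp4 and Oasl2 had the highest values (0.95, 0.95 and 0.94), and 6 genes were below 0, with Ifit2 (-0.75) and Psmb8 (-0.44) the lowest of those well above background on all arrays. Oas3 was also below 0, but its probe was well above background on 7 of 15 arrays. Over the 11 arrays left without the 4 that stood apart, 24 of 38 genes were above 0.5, against 10.6% of the other features. Psmb8 and Psmb9 then had values of 0.62 and 0.81, and Ifit3 turned from 0.53 to -0.24. Rsad2 was near 0 in both (0.08 and -0.11).

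**Figure D5:**
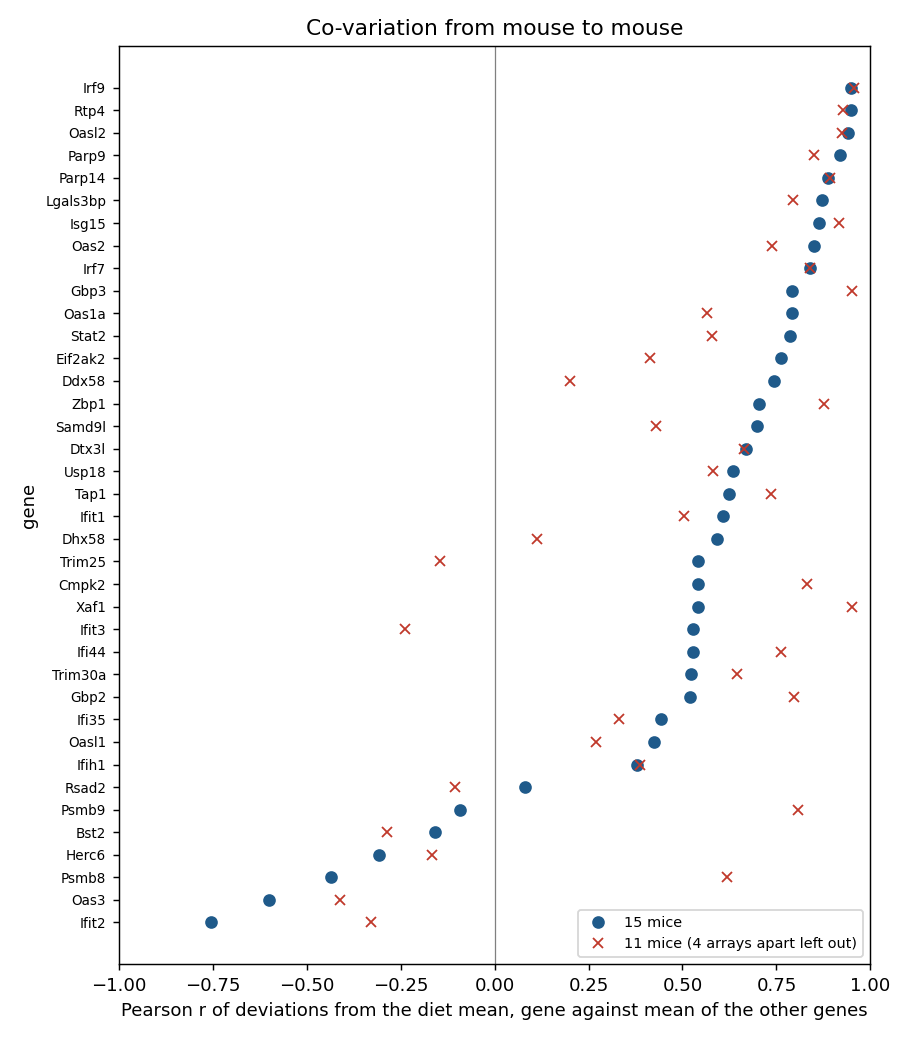
Pearson correlation (horizontal axis) between a gene's deviations from its diet means and the mean deviation of the other measured interferon stimulated genes (vertical axis, 38 genes), over 15 mice (circles) and over the 11 mice left without the arrays that stood apart (crosses). Irf9, Rtp4 and Oasl2 lie near 0.95 in both, and Psmb8, Psmb9, Trim25, Ifit3 and Rsad2 change sign between them.

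The genes outside the list whose deviations were most like the mean of the 38 over 15 arrays were Sema3d (r = 0.92), Meis2 (0.90), Slain2 (0.88), Tbc1d8 (0.88) and Marcksl1-ps4 (0.88). Over the 11 arrays those most alike included Kif5c (0.99), Tstd3 (0.96), Gas2 (0.95) and H2-K1 (0.95). H2-K1, an MHC class I heavy chain, is itself interferon stimulated, and the lists of most alike genes shared no gene between the settings.

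The rest of the pathway was read from lists chosen by role. Of 16 type I and type III interferon genes, 10 were measured and 0 passed limma's test at any dose, on the trend or in the F test, with 1 at an unadjusted p under 0.05 in the F test, beside 5.35% of all features. At 20 ppm 1 of the 10 was above 0, beside 44.4% of all features, and their median log2 difference was -0.21. At 5000 ppm 6 of the 10 were above 0, beside 60.6%, with a median of 0.05. The probe for Ifnb1, the interferon made first by most cells, was well above background on 4 of 15 arrays and did not pass the filter. Ifnk, a keratinocyte interferon, had the smallest F test p of these (0.0365, adjusted p = 0.906). It read -2.07, -2.79 and -2.86 in controls and -2.17, -1.35 and -1.39 at 2500 ppm. Of the 6 interferon receptor genes 0 passed limma's test, with 0 at an unadjusted p under 0.05 in the F test (5.35% of all features), and Ifnar1, a chain of the type I receptor, differed from control by 0.22 at 20 ppm and 0.09 at 5000 ppm.

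Of 24 genes most responsive to interferon gamma, 21 were measured and 0 passed in any test, with 2 at an unadjusted p under 0.05 in the F test, beside 5.35% of all features. Their median log2 difference was 0.27 at 20 ppm, where 17 of the 21 were above 0 beside 44.4% of all features. It was -0.17 at 5000 ppm, where 3 of the 21 were above 0 beside 60.6%. Cxcl10, a chemokine that draws T cells, read -0.42, -0.46 and -0.35 in controls, -0.19, 0.37 and -0.20 at 20 ppm, 0.71, 0.38 and -0.29 at 500 ppm, -0.81, -0.64 and -1.36 at 2500 ppm, and -0.42, -0.45 and -1.13 at 5000 ppm. The 20 and 500 ppm mice all lay above the controls and the 2500 ppm mice all below them, with an F test p of 0.00715 and an adjusted p of 0.656. Cd274, the checkpoint ligand PD-L1, differed by -0.56 at 2500 ppm and -0.54 at 5000 ppm (F test adjusted p = 0.814). Of 46 measured further interferon stimulated genes, 0 passed limma's test, with 2 at an unadjusted p under 0.05 in the F test (5.35% of all features), and their median difference was 0.11 at both 20 and 5000 ppm.

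Markers of cells that make or carry interferon signals were read on the same arrays. Plasmacytoid dendritic cells are the most prolific makers of type I interferon, and all 8 of their markers were measured. Their mean log2 level was 1.67 and 1.36 in 20 ppm mice 2 and 3 and 1.37 in 500 ppm mouse 2, inside the range of 1.15 to 1.95 over all mice. For 7 of 8 monocyte markers the mean was 3.81 to 4.06 in controls, 3.51 to 4.18 at 20 ppm, 3.87 to 4.01 at 500 ppm, 3.89 to 3.98 at 2500 ppm and 3.99 to 4.17 at 5000 ppm. The mice high for the interferon stimulated genes read 4.15, 4.18 and 4.01 for it. Control mouse 3, at 4.06, and 5000 ppm mice 1 and 2, at 4.12 and 4.17, also read above 500 ppm mouse 2. Those mice were not among the ones high for the genes. The lowest monocyte value was that of 20 ppm mouse 1. That mouse also had the lowest mean for plasmacytoid dendritic cell (1.15), T cell (-0.45) and natural killer cell (-1.11) markers. The part of these cells in the differences between mice was not tested.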

How the data were processed

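Signals were extracted by Agilent Feature Extraction, version 10.7.3.1, per the file headers. The deposited scanner files hold a background-subtracted processed signal as intensity on a linear scale. The authors' deposited log2 table equals log2 of that signal plus 1 constant per array (r = 1 on every array) and was used as an alternative only. The labels state 100 ng of RNA as the input for Cy3 labelling. A genome build, mm9, appears only in the headers of the first slide, and no probe coordinates are used.

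Control spots and spots called outliers by the software (104 to 274 per array) were left out; none belonged to an interferon stimulated gene. Each array's log2 signal was set to 0 at its 75th percentile. A probe was kept if the software called 50% or more of its spots well above background on each of the 3 arrays of some diet (43154 of 56605 probes). Symbols came from RefSeq accessions in a GRCm38.p6 table. The 38 genes had 54 probes, and the kept probe with the highest mean stood for a gene. Limma 3.58.1 in R 4.3.3 was fitted with 1 coefficient per diet over 15 arrays (10 residual degrees of freedom), with two-sided tests and Benjamini-Hochberg adjustment over 34401 features. The fit was tested on simulated data. The genes, lists and tests were chosen with earlier results of these data known.

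Genes given with all values were 12 chosen by role (among them Mx1, without a probe), the 3 with the smallest F test p, the largest differences of either sign at each dose, and the gene of each role farthest from 0 at 5000 ppm. For each further list the 2 genes with the smallest F test p could be named. Of the features most like the mean of the 38 genes, 1 is not reported here. Like-numbered arrays deviated together in all 3 pairs for control and 20 ppm (r = 0.61, 0.26 and 0.17) and for 500 and 2500 ppm (r = 0.38, 0.29 and 0.48), a hint from the data and not from the labels. Alternatives covered background correction, scale, filter, probes, blocks, empirical Bayes settings, array weights and arrays left out. Added after seeing the data were co-variation without 4 arrays and the first slide alone. Normexp used median spot signals, since mean signals were not in the files used here.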

Additional observations from a re-analysis of the deposited data

How the results depend on the processing

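No interferon stimulated gene passed at any dose against control under any of the alternatives run, planned or added. With array weights, 1 gene (Ifih1) passed on the trend and 2 genes (Ifih1 and Oasl1) in the F test, where 749 and 887 of all 34401 features passed, against 49 and 14 in the unweighted fit. With the replicate number as a block (the replicate block), 0 genes passed in each of the 8 tests, so the pairing changed no call. With slide as a fixed block the median log2 difference was 0.18 at 2500 ppm and 0.26 at 5000 ppm, and the median slope 0.044 per rank; that block rests on 500 ppm mouse 3, an array that stood apart, and 4952 features then passed at 5000 ppm against 14. Scaling by the median of each array gave medians of -0.086 at 500 ppm against control and -0.30 for 500 against 20 ppm, and the median of all features moved from 0.12 to -0.11 and from 0.13 to -0.12. Leaving out 1 array at a time gave 0 genes in every test. The medians then ranged from 0.12 to 0.31 at 20 ppm, 0.00 to 0.23 at 500 ppm, -0.11 to 0.06 at 2500 ppm, -0.06 to 0.09 at 5000 ppm, 0.05 to 0.17 for 5000 against 2500 ppm, -0.22 to 0.05 for 500 against 20 ppm, and -0.04 to -0.01 for the slope. The sign of the log2 difference changed in at least 1 alternative for 13, 26, 27 and 29 of the 38 genes at 20, 500, 2500 and 5000 ppm. Ifih1 stayed below control at 2500 ppm (-0.65 to -0.44), Rsad2 at 5000 ppm (-0.85 to -0.37) and Ifit3 above it at 5000 ppm (0.36 to 0.75). Precision is limited by 3 arrays per diet.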

Other observations

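Of 15 genes of MHC class I and its peptide supply outside the list, 13 were measured. Limma's test passed 0 of them in any comparison, with 0 at an unadjusted p under 0.05 in the F test, beside 5.35% of all features. H2-T23, a nonclassical class I heavy chain, read 5.21, 4.17 and 4.39 in controls, 5.34, 5.03 and 4.38 at 20 ppm, 4.60, 5.39 and 3.92 at 500 ppm, 3.51, 3.65 and 4.33 at 2500 ppm, and 4.14, 4.2 and 4.31 at 5000 ppm. H2-Q7, another class I chain, read 5.63, 5.02 and 4.39 in controls and 4.32, 4.45 and 4.44 at 2500 ppm, a log2 difference of -0.61 that overlapped the controls. Among the brakes on interferon signalling, Nlrc5, a class I transactivator, read 1.52, 1.22 and 1.68 at 20 ppm against 0.84, 1.47 and 0.78 in controls (F test adjusted p = 0.976).

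Among kinases and sensors upstream of interferon, Tbk1, the kinase that activates IRF3, had its 2 highest values in control mouse 1 (-0.64) and 20 ppm mouse 1 (-0.57) and lay between -2.80 and -1.87 in the other 13 mice. Ly6a, the interferon-inducible surface antigen Sca-1, was highest in the same 2 mice, at 6.16 and 6.01. Both mice stood apart on the second component, as they did for Psmb8.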
